A study of Homo sapiens with 18 samples.

Results

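The genes described here are the WNT pathway ligands, receptors and regulators that the array's annotation names by symbol, measured in HCC1806 and HCC1395 cells given a control GapmeR or a GapmeR against the long non-coding RNA *PART1*. They were chosen by symbol alone, as genes of the WNT, FZD, DKK, SFRP and RSPO families together with *LGR4*, *LGR5*, *LGR6*, *LRP5*, *LRP6*, *AXIN1*, *AXIN2*, *APC*, *CTNNB1*, *LEF1*, *TCF7*, *TCF7L1*, *TCF7L2*, *RNF43*, *ZNRF3*, *NKD1*, *NKD2*, *WIF1* and *PORCN*. Of the 60 such genes in the RefSeq annotation, 37 had a symbol among the 16098 named transcript clusters of 53617 in all, each with 1 transcript cluster, which is the array's unit for a gene or part of one. The other 23 are *CTNNB1*, *PORCN*, *TCF7*, *TCF7L1*, *TCF7L2* and 18 of the 19 WNT ligand genes, all but *WNT2*, and they are not analysed here. The 37 genes comprise 5 ligands, 15 receptors, 9 secreted antagonists, 7 inhibitors inside the cell or in its membrane, and 1 nuclear factor. No gene was removed for a low signal, so all 37 were tested.

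HCC1806 and HCC1395 are established triple-negative breast cancer (TNBC) cell lines. For 48 h each line was exposed to 1 of 3 oligonucleotides, the negative control GapmeR or either of the GapmeRs 1 and 2 directed at *PART1*, and RNA of the resulting 6 groups was measured on 3 arrays per group. A GapmeR is an antisense oligonucleotide that pairs with an RNA and recruits RNase H to degrade it. Every group, controls included, received one, so no array holds cells without a GapmeR. Values are log2 signals, in which a difference of 1 is a 2-fold change, and each is relative to the probes of its own gene, so levels of different genes cannot be compared. Nothing used here says that replicate arrays came from separate cultures, so p-values measure the spread between arrays, which may be technical.

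WNT ligands bind a frizzled receptor (FZD) and a co-receptor, LRP5 or LRP6, at the cell surface. In the absence of a ligand, a complex built on AXIN and APC marks β-catenin for destruction. When the receptors are engaged the complex is held back, β-catenin accumulates, and it enters the nucleus to act with factors of the TCF and LEF family. R-spondins (RSPO) bind LGR4, LGR5 and LGR6 and protect frizzled receptors from RNF43 and ZNRF3, which are ubiquitin ligases that remove those receptors from the membrane. DKK1 blocks the LRP co-receptors, and SFRP proteins and WIF1 bind WNT ligands outside the cell. In the mammary gland the pathway is known for its part in stem and progenitor cells, and *AXIN2*, *LGR5*, *RNF43*, *ZNRF3*, *NKD1*, *LEF1* and *DKK1* are known in various tissues as targets of β-catenin as well as parts of the pathway.

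The targeted RNA was looked at first. In HCC1395 cells *PART1* lay between 5.45 and 5.76 on the control arrays, between 4.72 and 5.36 with GapmeR 1 and between 4.70 and 5.29 with GapmeR 2. In HCC1806 cells it was at 3.69 to 3.94, 3.68 to 4.07 and 3.87 to 4.47, with the controls already under the array median. The signal was not lower on the arrays labelled GapmeR 1 or GapmeR 2, but from that level it leaves little room to show a fall, so it gives no check of the labels in HCC1806. The log2 differences were −0.60 and −0.66 in HCC1395 and 0.09 and 0.28 in HCC1806, and none passed after adjustment in limma (adjusted p = 0.895, 0.701, 0.958 and 1.00). Array medians ran from 4.04 to 4.13 and correlations between arrays of a group from 0.982 to 0.987. Among epithelial markers, 6 of 10 were measured, with a mean log2 signal of 8.87 to 8.88 on the HCC1806 control arrays and 5.56 to 5.80 on those of HCC1395. Of 5 mesenchymal markers 4 were measured, with means of 4.66 to 4.96 and 8.55 to 8.71. *EPCAM*, an epithelial adhesion molecule, was at 11.18 ± 0.09 (SD, n = 3) in HCC1806 and 4.75 ± 0.35 in HCC1395, and *VIM*, the mesenchymal filament vimentin, at 5.12 ± 0.45 and 9.31 ± 0.31. Of the 6 epithelial markers, 4 were called higher in HCC1806. *KRT8* (5.59 in HCC1806 and 5.60 in HCC1395) and *KRT14* (7.95 and 7.63) did not pass. All 4 mesenchymal markers were called lower in HCC1806. These marker differences lie between the same lines as every line difference given below, and their part in those differences was not tested. The endothelial markers *PECAM1* and *VWF* were under the array median on every array, while the 5 leukocyte markers and the fibroblast markers have no symbol here.

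The first comparison set the lines against each other on the control arrays. The difference in signal was largest for the antagonist *DKK1*, which was 44.9-fold higher in HCC1806, and for the receptors *FZD1* and *FZD8*, which were 16.1-fold and 9.69-fold higher in HCC1395. *LEF1*, the nuclear partner of β-catenin, was 5.72-fold higher in HCC1395, whereas *FZD6* and *RNF43* were 4.53-fold and 4.09-fold higher in HCC1806. The signals of *DKK1* and *RNF43* on the HCC1395 control arrays and of *LEF1* on those of HCC1806 lay under the array median, where signal may not be above background, so these 3 folds are ratios of array signal and no exact ratio of RNA. In RNA from whole cultures, fewer cells with a transcript and less of it per cell cannot be told apart. In all, 18 of the 37 genes differed at an adjusted p under 0.05 in limma, 5 higher and 13 lower in HCC1806. The lines differed widely: 29.3% of all transcript clusters and 42.8% of those with 1 gene symbol passed the same test (14.4% and 21% higher, 14.9% and 21.8% lower). The share of the 37 genes called in either direction was thus near that of named genes in general. By direction the shares were less alike, with 13 of 37 lower beside 21.8% and 5 of 37 higher beside 21%, which was not tested. The median absolute difference of the 37 genes was 0.33, against 0.34 for all named transcript clusters. Their median signed difference was −0.18, against 0.00 for all transcript clusters. At least 2-fold differences were called for 11 genes, beside 12.9% of all and 18% of named transcript clusters. For 20 genes the control arrays of the lines did not overlap, beside 40.7% of all and 54.6% of named transcript clusters.

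**Figure D1:**
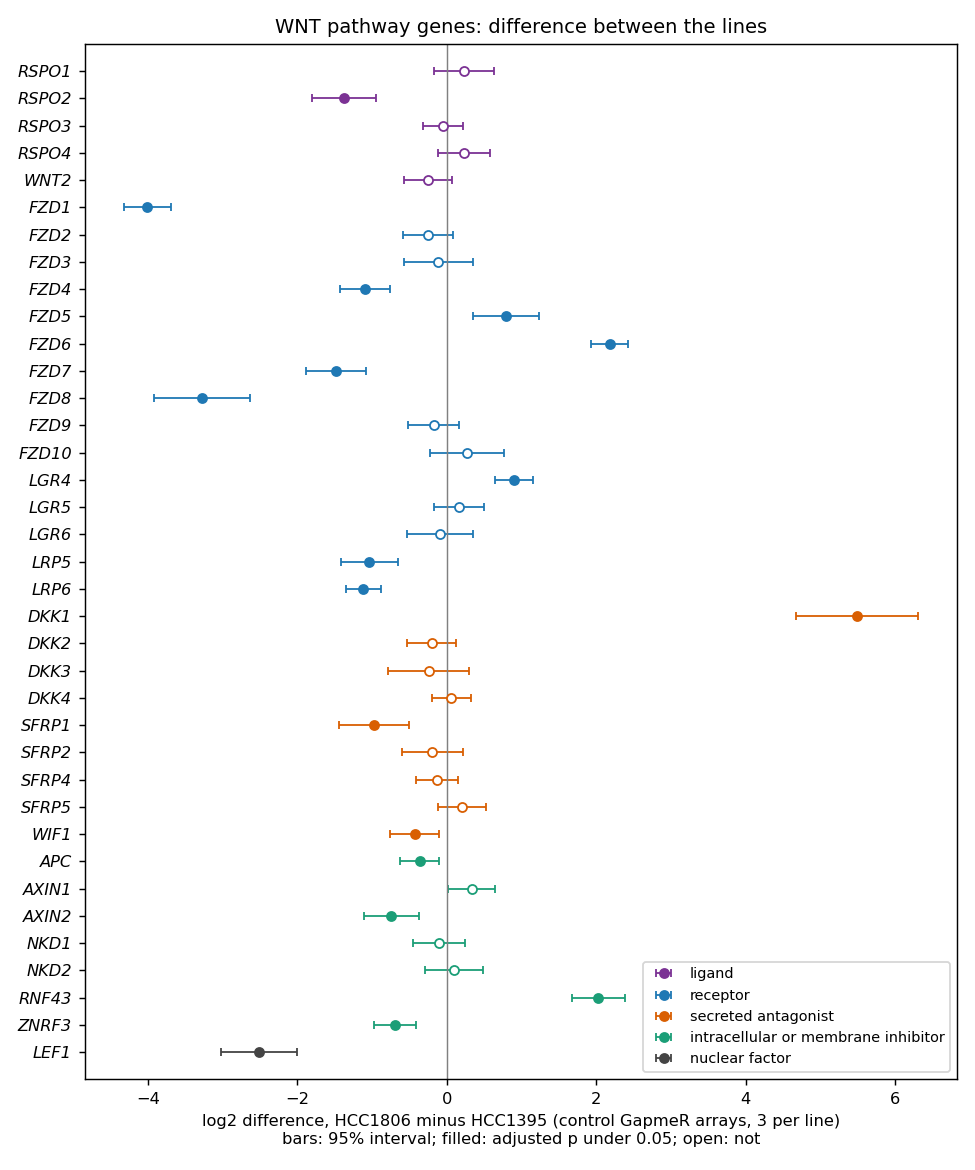
Log2 difference between the lines (x axis, HCC1806 minus HCC1395, control arrays, 3 against 3) for the 37 genes (y axis), coloured by role. Points are limma estimates, bars are 95% intervals, and filled points mark the 18 genes with an adjusted p under 0.05. *DKK1* lies farthest to the right at 5.49 and *FZD1* farthest to the left at −4.01.

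Sequences upstream of 4 of these genes are printed because their differences were among the largest and oppose each other in direction. RefSeq gave a promoter window, from 250 bases before to 50 bases after the transcription start (300 bases, build GRCh38.p14), for 22 of the 37 genes, with 26 starts. Both strands were searched for CTTTGAA and CTTTGAT, core letters bound by TCF and LEF factors, which differ in the last letter and cannot both match at a position. Among the 26 windows 1 held a match, that of *DKK1*, and 6.86% of the 35116 promoters in the table did. The match spans positions −95 to −89 relative to the start, on the strand of the gene. A match or its absence describes these letters in this window only. The windows lie at chr10:52314031-52314330 on the plus strand for *DKK1*, chr17:58417485-58417784 on the minus strand for *RNF43*, the outer of its starts in the table, chr7:91264183-91264482 on the plus strand for *FZD1* and chr4:108166252-108166551 on the minus strand for *LEF1*, at a start inside the outer end of the annotated gene. Each is written 5′ to 3′ along its gene, with the first transcribed base, and in *DKK1* also the motif, in capitals.
DKK1: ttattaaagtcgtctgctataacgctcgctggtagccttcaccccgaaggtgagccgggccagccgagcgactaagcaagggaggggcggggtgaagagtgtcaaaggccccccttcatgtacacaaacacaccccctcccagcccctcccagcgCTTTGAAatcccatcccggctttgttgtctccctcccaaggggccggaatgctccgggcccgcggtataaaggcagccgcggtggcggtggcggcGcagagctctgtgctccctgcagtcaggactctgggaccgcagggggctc
RNF43: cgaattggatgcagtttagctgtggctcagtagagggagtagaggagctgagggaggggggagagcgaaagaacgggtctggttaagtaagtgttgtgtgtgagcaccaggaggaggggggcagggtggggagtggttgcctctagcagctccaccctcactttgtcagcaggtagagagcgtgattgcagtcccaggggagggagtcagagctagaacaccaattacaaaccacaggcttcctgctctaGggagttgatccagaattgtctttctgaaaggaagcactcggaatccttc
FZD1: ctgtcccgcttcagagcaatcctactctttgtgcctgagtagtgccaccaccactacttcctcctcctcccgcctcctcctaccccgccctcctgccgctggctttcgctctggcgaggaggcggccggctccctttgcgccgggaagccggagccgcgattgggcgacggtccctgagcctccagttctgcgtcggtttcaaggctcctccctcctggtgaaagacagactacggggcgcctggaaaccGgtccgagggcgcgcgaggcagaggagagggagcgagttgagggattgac
LEF1: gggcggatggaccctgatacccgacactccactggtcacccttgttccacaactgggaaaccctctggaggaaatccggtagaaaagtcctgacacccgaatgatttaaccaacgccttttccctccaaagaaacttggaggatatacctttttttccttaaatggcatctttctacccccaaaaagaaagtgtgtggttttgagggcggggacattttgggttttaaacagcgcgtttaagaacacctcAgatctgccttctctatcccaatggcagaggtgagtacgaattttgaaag
The *DKK1* and *FZD1* windows hold 20 and 25 CG pairs and have a GC content of 63.7% and 65.7%. The *LEF1* and *RNF43* windows hold 9 and 5 CG pairs, with a GC content of 47% and 54.3%. The median over the 26 windows was 24 CG pairs, against 14 over all promoters, so the *LEF1* and *RNF43* windows lie below the median of both and those of *DKK1* and *FZD1* above that of all promoters.

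Among the ligands, *RSPO2*, an R-spondin, was the only one of 5 that differed on the control arrays. HCC1806 controls gave log2 signals of 3.90, 4.34 and 3.42, and HCC1395 controls 5.22, 5.39 and 5.16, a difference of −1.37 (SE 0.20, limma adjusted p = 4.38e-05). Every HCC1395 array lay above every HCC1806 array. HCC1806 controls 1 and 3 lay under the array median, where signal may not be above background. The *RSPO2* difference is thus of array signal and gives no exact ratio of RNA. *WNT2*, the 1 ligand of the WNT family measured, was at 2.32, 2.17 and 1.68 in HCC1806 and 2.39, 2.25 and 2.29 in HCC1395, under the array median on all 18 arrays. Its difference of −0.25 (95% interval −0.57 to 0.06) did not pass. *RSPO1*, *RSPO3* and *RSPO4* differed by 0.23, −0.05 and 0.23, and none passed. *RSPO3* was also under the array median on every array.

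Of the 10 frizzled receptors, 6 differed, 4 of them lower and 2 higher in HCC1806. *FZD1* (RefSeq, chr7:91264433-91271326) was at 5.08, 4.90 and 5.32 in HCC1806 and 9.07, 9.15 and 9.09 in HCC1395, with a difference of −4.01 (SE 0.15, limma adjusted p = 4.56e-12). The gap between the lines was many times the spread within either. *FZD8* (chr10:35638247-35642296) was at 6.28, 6.73 and 5.60 and at 9.41, 9.33 and 9.69, a difference of −3.28 (SE 0.30, limma adjusted p = 2.18e-07). The HCC1806 arrays spread widely for this receptor, array 3 lowest and array 2 highest, and none came near the HCC1395 arrays.

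*FZD7*, a frizzled receptor often studied in TNBC, read 5.31, 5.37 and 5.25 in HCC1806 and 6.66, 6.70 and 7.01 in HCC1395. *FZD4*, which also serves as the receptor for norrin, read 5.75, 5.59 and 5.50 and 6.70, 6.76 and 6.67. Both were higher on every HCC1395 array, by 2.80-fold and 2.14-fold (limma adjusted p = 8.34e-06 and 2.96e-05). *FZD6*, which in other settings acts against β-catenin signalling and in planar cell polarity, went the other way. It read 10.19, 10.21 and 10.24 in HCC1806 and 7.95, 8.01 and 8.14 in HCC1395, a difference of 2.18 (SE 0.12, limma adjusted p = 4.07e-10), with little spread in either line. *FZD5* was at 5.96, 5.97 and 6.11 and 5.27, 5.36 and 5.04, 1.73-fold higher in HCC1806 (limma adjusted p = 0.00712). *FZD2*, *FZD3*, *FZD9* and *FZD10* differed by −0.25, −0.11, −0.18 and 0.27, and none passed.

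Both LRP co-receptors were lower in HCC1806. *LRP6* was at 8.53, 8.70 and 8.50 in HCC1806 and 9.68, 9.75 and 9.65 in HCC1395, a difference of −1.12 (SE 0.11, limma adjusted p = 5.02e-07). *LRP5* was at 7.23, 7.24 and 7.22 and 8.12, 8.21 and 8.46, a difference of −1.03 (SE 0.18, limma adjusted p = 2.34e-04). For neither did an array of one line reach the other. Among the R-spondin receptors, *LGR4* was 1.87-fold higher in HCC1806, at 8.73, 8.71 and 8.89 against 7.79, 7.86 and 7.96 (limma adjusted p = 1.41e-05). *LGR5*, under the array median on all 18 arrays, and *LGR6* differed by 0.17 and −0.09 and did not pass.

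*DKK1* (chr10:52314281-52317657) stood out among the 9 secreted antagonists. It read 9.02, 9.49 and 9.10 in HCC1806 control cells but 4.07, 3.26 and 3.82 in HCC1395 control cells, a difference of 5.49 (SE 0.38, limma adjusted p = 9.58e-09). The 95% interval ran from 4.67 to 6.30. No HCC1806 array was below 9, and every HCC1395 control array was under the array median. *SFRP1*, an antagonist that binds WNT ligands, was at 5.91, 5.67 and 5.38 and 6.67, 6.51 and 6.70, 1.97-fold higher in HCC1395 (limma adjusted p = 0.00237). *WIF1* was dim, at 2.39, 2.48 and 2.42 and 2.64, 2.88 and 3.06, under the array median on all 18 arrays. Its difference of −0.43 passed narrowly (limma adjusted p = 0.0480), was lost in 5 of the 6 fits that left out an array, with adjusted p up to 0.196 without HCC1395 control 3, and did not pass on the other arrays. *DKK2*, *DKK3*, *DKK4*, *SFRP2*, *SFRP4* and *SFRP5* differed by −0.24 (*DKK3*) to 0.21 (*SFRP5*) and did not pass. Of these, *DKK2*, *DKK4*, *SFRP2* and *SFRP4* were under the array median on every array.

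Of the 7 inhibitors inside the cell or in its membrane, *RNF43* was higher in HCC1806 and *AXIN2*, *ZNRF3* and *APC* were lower. *RNF43* (chr17:58352500-58417534) was at 5.94, 5.90 and 5.87 in HCC1806 and 3.995, 3.94 and 3.69 in HCC1395, a difference of 2.03 (SE 0.17, limma adjusted p = 5.62e-08). *ZNRF3*, the related ubiquitin ligase, was at 5.58, 5.38 and 5.45 and 6.30, 5.97 and 6.21, a difference of −0.69 (SE 0.13, limma adjusted p = 5.55e-04). The pair that removes frizzled receptors thus differed in opposite directions, each without overlap between the lines. *AXIN2*, a scaffold of the destruction complex, read 4.98, 5.20 and 4.64 in HCC1806 and 5.88, 5.44 and 5.73 in HCC1395. The difference was −0.74 (SE 0.17, limma adjusted p = 0.00307) and missed the threshold in an unmoderated test of the 6 arrays (adjusted p = 0.0869). *APC* was at 6.18, 6.47 and 6.40 and 6.62, 6.83 and 6.68, a difference of −0.36 (limma adjusted p = 0.0365). This call was lost without HCC1806 control 1, HCC1806 control 3, HCC1395 control 2 or HCC1395 control 3, with adjusted p from 0.0588 to 0.165. *AXIN1* did not overlap between the lines, yet its difference of 0.33 did not pass (limma adjusted p = 0.113). *NKD1* and *NKD2*, which restrain Dishevelled, differed by −0.11 and 0.10 and did not pass.

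*LEF1*, the 1 nuclear factor measured, was at 2.72, 3.19 and 3.33 in HCC1806, under the array median on all 9 arrays of that line, and at 5.57, 5.21 and 6.01 in HCC1395, over it on all 9. The difference was −2.52 (SE 0.24, limma adjusted p = 3.51e-07).

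**Figure D2:**
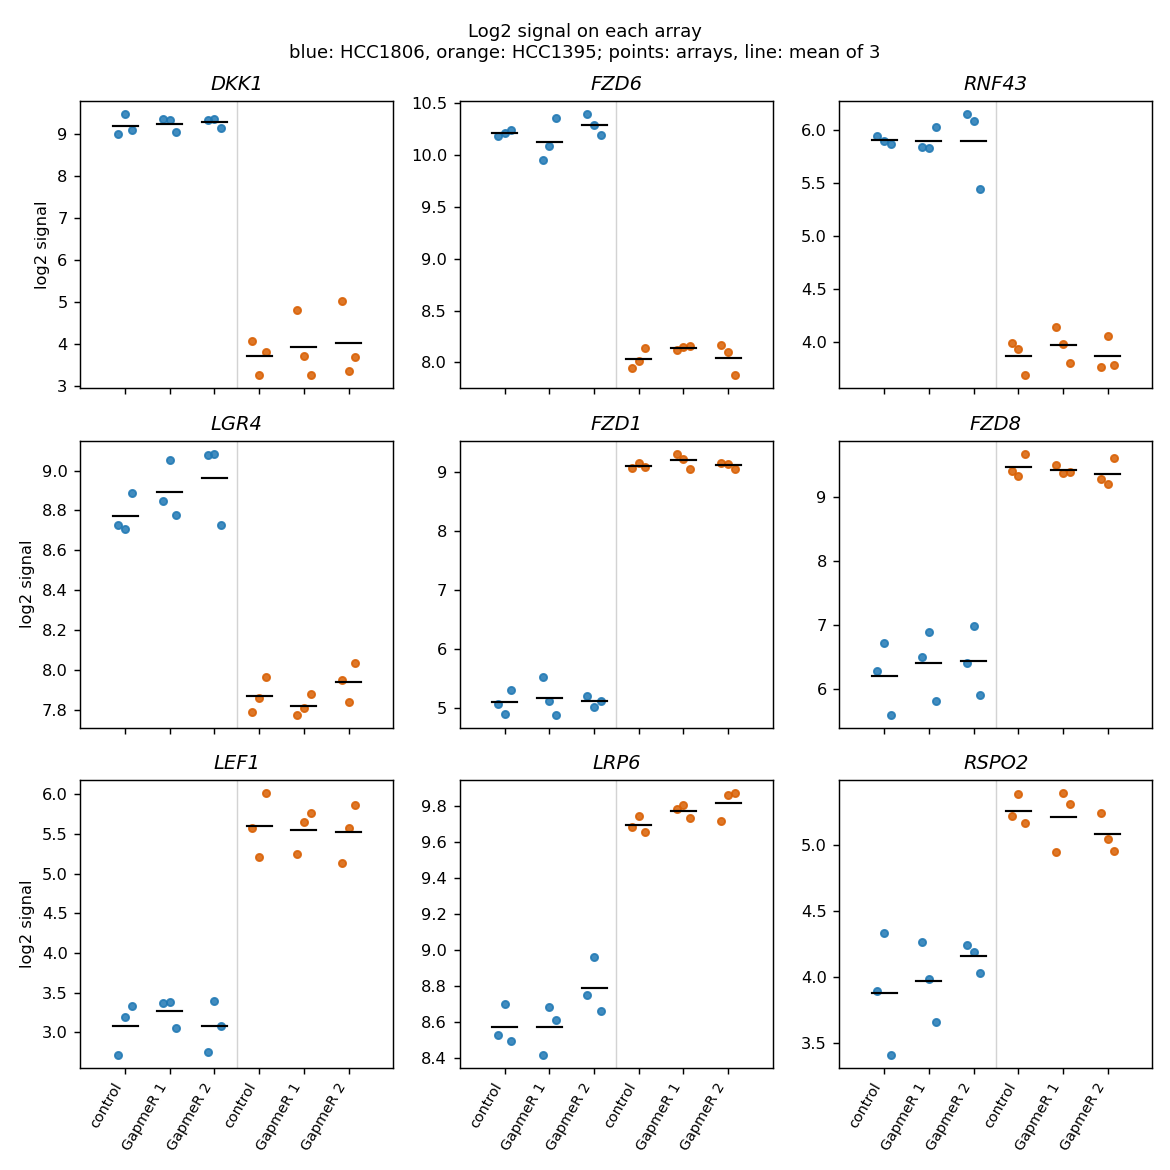
Log2 signal (y axis) of 9 genes on each of the 18 arrays by group (x axis), HCC1806 in blue and HCC1395 in orange. Points are arrays and lines are means of 3. *DKK1*, *FZD6*, *RNF43* and *LGR4* are higher on every HCC1806 array, and *FZD1*, *FZD8*, *LEF1*, *LRP6* and *RSPO2* on every HCC1395 array.

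The difference between the lines was also taken on the 12 arrays labelled GapmeR 1 or GapmeR 2, whose means do not enter the control difference, although all 3 comparisons share an estimate of the spread over the 18 arrays. On the GapmeR 1 arrays 19 of the 37 genes passed, 6 higher and 13 lower in HCC1806, beside 31.4% of all and 44.8% of named transcript clusters (15.1% and 22% higher, 16.2% and 22.8% lower). On the GapmeR 2 arrays 19 passed, 7 higher and 12 lower, beside 31.7% and 44.5% (15.4% and 21.9% higher, 16.3% and 22.7% lower). In all 3 comparisons 17 genes passed: *APC*, *AXIN2*, *DKK1*, *FZD1*, *FZD4*, *FZD5*, *FZD6*, *FZD7*, *FZD8*, *LEF1*, *LGR4*, *LRP5*, *LRP6*, *RNF43*, *RSPO2*, *SFRP1* and *ZNRF3*. Lines did not overlap for 21 genes on either set, beside 41.2% and 42.2% of all and 54% and 55% of named transcript clusters.

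*DKK1* differed by 5.32 and 5.26 on these arrays and *FZD1* by −4.02 and −3.99. *DKK1* was at 9.37, 9.34 and 9.05 and at 9.35, 9.37 and 9.15 in HCC1806, and at 4.81, 3.72 and 3.27 and at 5.02, 3.36 and 3.70 in HCC1395. Its HCC1395 arrays spread widely, array 1 being the highest in each group. *FZD8* differed by −3.02 and −2.94, *LEF1* by −2.28 and −2.45, *FZD6* by 1.99 and 2.25 and *RNF43* by 1.92 and 2.02. Of the 22 genes that passed in at least 1 of the 3 comparisons, 19 had the same sign in each, and *LGR5*, *RSPO3* and *WIF1* did not. *LGR5* was −0.49 on the GapmeR 1 arrays and *RSPO3* was 0.53 on the GapmeR 2 arrays, and both passed there but not on the controls. The same held for *AXIN1* (0.49 on GapmeR 1 arrays) and *FZD10* (0.70 on GapmeR 2 arrays). *FZD10* read 3.46, 3.68 and 3.15 on the HCC1395 GapmeR 2 arrays, under the array median, where signal may not be above background.

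**Figure D3:**
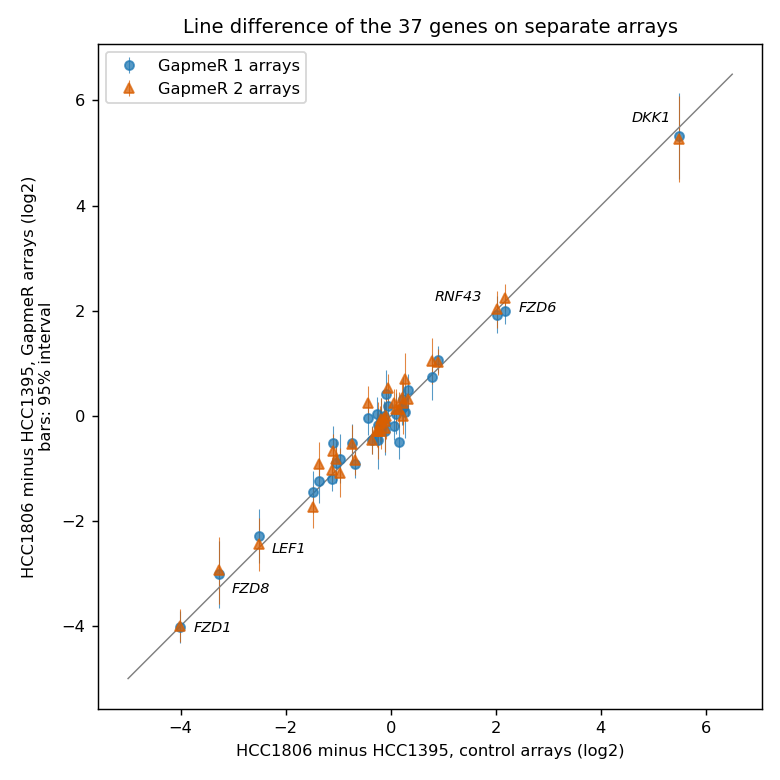
Log2 difference between the lines on the control arrays (x axis) against the same difference on GapmeR 1 arrays (circles) and GapmeR 2 arrays (triangles) (y axis) for the 37 genes, with 95% intervals and the line of equality. *DKK1* lies at the upper right (5.49 on controls, 5.32 and 5.26 on the others) and *FZD1* at the lower left (−4.01, −4.02 and −3.99).

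The next comparison set each GapmeR against the control arrays of its line. For HCC1806 these are arrays labelled GapmeR 1 and GapmeR 2, named by their labels, since the *PART1* signal gave no check of them. None of the 37 genes passed at an adjusted p under 0.05 in limma in any of the 4 comparisons, and 0% of all transcript clusters did. At an unadjusted p under 0.05, 1 gene passed with GapmeR 1 and 2 with GapmeR 2 in HCC1806 (5.97% and 5.07% of all transcript clusters), and likewise 1 and 2 in HCC1395 (5.39% and 6.73%). None reached the study's threshold of 1.6-fold at an unadjusted p under 0.05, beside 1.26%, 1.04%, 0.955% and 1.06% of all transcript clusters. The differences ran from −0.55 (*LGR5*, HCC1806 with GapmeR 1) to 0.45 (*FZD4*, HCC1806 with GapmeR 2). In each comparison the 95% interval stayed within 2-fold for 36 of the 37 genes. The exceptions were *FZD8* in HCC1806, whose intervals reached 2.04-fold and 2.07-fold, and *DKK1* in HCC1395, whose intervals reached 2.46-fold and 2.62-fold. For *FZD8*, array 3 was the lowest and array 2 the highest in each HCC1806 group. For *DKK1*, array 1 was the highest in each HCC1395 group. The fits did not pair arrays by number, so this spread is part of these intervals. An adjusted p over 0.05 does not show that a gene was unaltered. Epithelial markers had means of 8.70 to 9.11 on the HCC1806 GapmeR arrays and 5.29 to 5.82 on those of HCC1395, and mesenchymal markers of 4.72 to 5.17 and 8.45 to 8.68, with none of either list passing after adjustment.

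**Figure D4:**
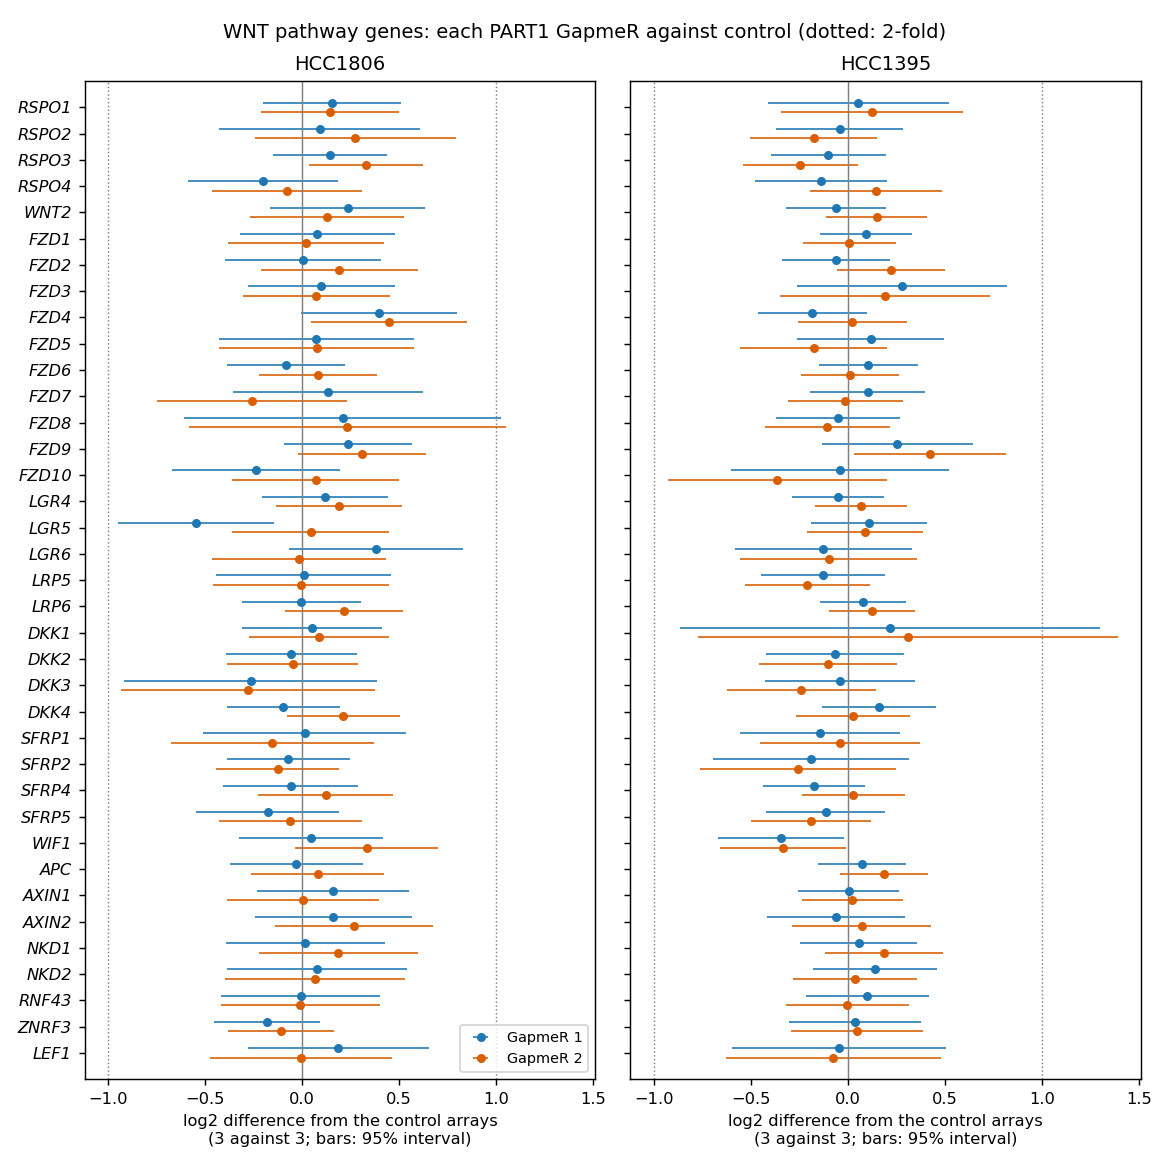
Log2 difference of each *PART1* GapmeR from the control arrays (x axis, 3 against 3 arrays) for the 37 genes (y axis) in HCC1806 and HCC1395, GapmeR 1 in blue and GapmeR 2 in orange, with 95% intervals. Dotted lines mark 2-fold. Apart from *FZD8* in HCC1806 and *DKK1* in HCC1395, every interval lies between them.

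In HCC1806, *LGR5*, an R-spondin receptor and stem cell marker of other epithelia, read 3.25, 2.98 and 3.31 on the controls. Arrays labelled GapmeR 1 gave 2.62, 2.61 and 2.67, and arrays labelled GapmeR 2 gave 3.06, 2.98 and 3.64. All 3 GapmeR 1 arrays lay below the controls while the GapmeR 2 arrays overlapped them. The GapmeR 1 difference was −0.55 (SE 0.18, limma adjusted p = 0.822) and that with GapmeR 2 was 0.05. The gene was under the array median on every array. *FZD4* in the same line read 5.75, 5.59 and 5.50 on the controls, against 6.24, 6.12 and 5.67 for arrays labelled GapmeR 1 and 6.27, 6.10 and 5.82 for arrays labelled GapmeR 2. The GapmeR 2 arrays lay above the controls and those of GapmeR 1 overlapped them. The differences were 0.40 (SE 0.18, limma adjusted p = 0.840) and 0.45 (SE 0.18, limma adjusted p = 0.965), against the same control arrays.

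*RSPO3* in HCC1806 read 3.20, 2.96 and 3.09 on the controls and 3.44, 3.35 and 3.45 on the arrays labelled GapmeR 2, without overlap, a difference of 0.33 (SE 0.13, limma adjusted p = 0.965). With GapmeR 1 it was 0.14. *LGR6*, the third R-spondin receptor, differed by 0.38 with GapmeR 1 and −0.01 with GapmeR 2. *FZD9* differed by 0.24 and 0.31, and *WIF1* by 0.05 and 0.33. Groups did not overlap for *LGR5* and *ZNRF3* with GapmeR 1, 2 of 37 genes beside 11.2% of all transcript clusters. With GapmeR 2 they did not overlap for *DKK4*, *FZD4*, *FZD7*, *RSPO3* and *WIF1*, 5 of 37 beside 10.6%.

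In HCC1395, where *PART1* lay lower on every GapmeR array than on any control, *WIF1* read 2.64, 2.88 and 3.06 on the controls, against 2.35, 2.52 and 2.67 under GapmeR 1 and 2.39, 2.66 and 2.52 under GapmeR 2. The differences were −0.35 (SE 0.14, limma adjusted p = 0.916) and −0.34 (limma adjusted p = 0.734). The lowest control array lay within the range of either GapmeR group, and the gene was dim throughout. *FZD9* read 3.43, 3.60 and 3.41 on the controls, against 3.83, 3.89 and 3.49 under GapmeR 1 and 3.95, 4.19 and 3.57 under GapmeR 2. Array 3 of each GapmeR group fell within the range of the controls and the others lay above it. The differences were 0.25 and 0.42 (SE 0.17, limma adjusted p = 0.724 for GapmeR 2). *FZD9* was dim too, over the array median on 1 of the 9 HCC1395 arrays and on 0 of the 9 HCC1806 arrays.

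*FZD4* in HCC1395 differed by −0.18 with GapmeR 1, without overlap, the 1 gene of 37 of which this held (11.4% of all transcript clusters), and by 0.02 with GapmeR 2. *APC* differed by 0.07 and 0.19, and with GapmeR 2 was the 1 gene without overlap, beside 12.7%. *SFRP4* differed by −0.18 with GapmeR 1 and *RSPO3* by −0.25 with GapmeR 2. *AXIN2*, widely used as a readout of β-catenin activity, differed by 0.16 and 0.27 in HCC1806 and by −0.06 and 0.07 in HCC1395, with standard errors of 0.18 in the former and 0.16 in the latter. Its HCC1395 arrays read 5.88, 5.44 and 5.73 on the controls, against 5.57, 5.63 and 5.67 under GapmeR 1 and 6.01, 5.50 and 5.75 under GapmeR 2, so the groups overlap. Its HCC1395 differences turned sign when 1 array was left out, to 0.037 with GapmeR 1 without control 1, and to −0.058 and −0.053 with GapmeR 2 without GapmeR 2 array 1 or control 2.

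**Figure D5:**
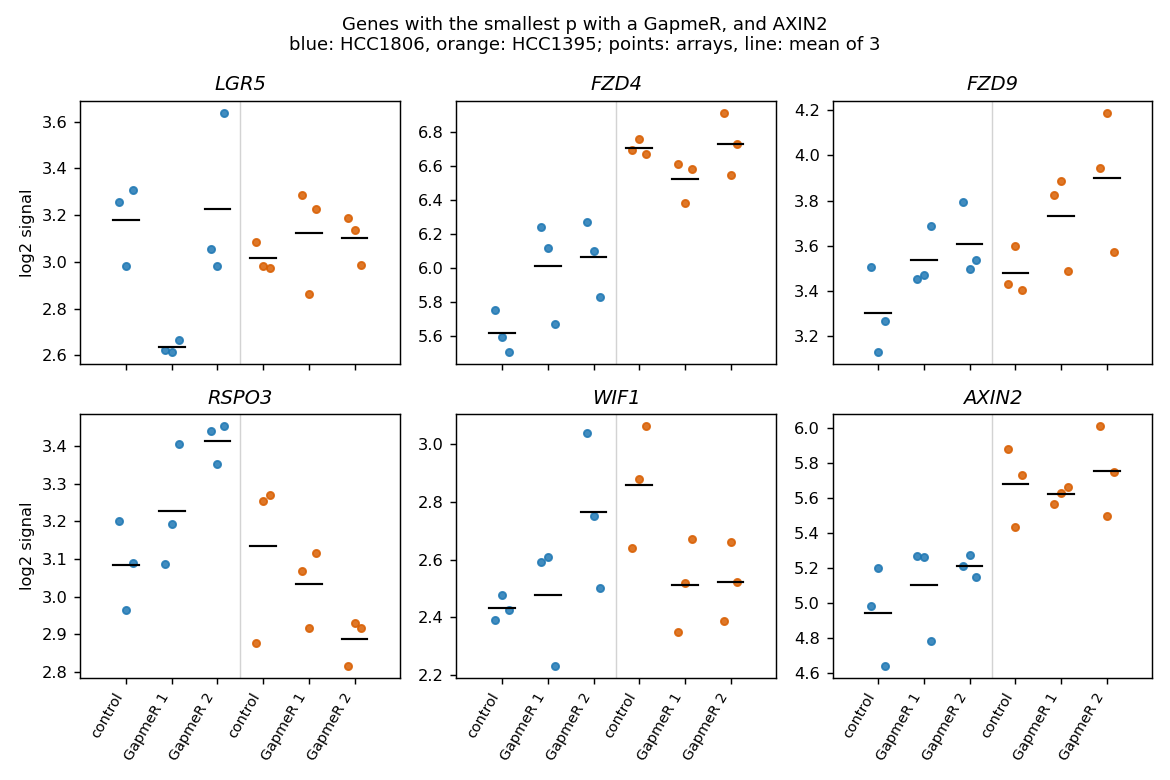
Log2 signal (y axis) on each array by group (x axis) of the 5 genes with an unadjusted p under 0.05 in a GapmeR comparison, and of *AXIN2*. Points are arrays, HCC1806 in blue and HCC1395 in orange, and lines are means of 3. *LGR5* is below its HCC1806 controls on the 3 GapmeR 1 arrays, and *FZD4* lies above its HCC1806 controls on the 3 GapmeR 2 arrays.

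Over the 4 comparisons, 8 genes were above control in each (*AXIN1*, *DKK1*, *FZD1*, *FZD3*, *FZD9*, *NKD1*, *NKD2* and *RSPO1*) and 4 were below control in each (*DKK2*, *DKK3*, *SFRP2* and *SFRP5*). The GapmeRs of a line share their control arrays, so these counts are not of independent comparisons. For GapmeR 1 and GapmeR 2 the median difference of the 37 genes was 0.05 and 0.08 in HCC1806, beside 0.01 and 0.01 for all transcript clusters. The HCC1395 medians were −0.04 and 0.02, beside 0.01 and −0.01.

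Whether the lines differed in their response was tested with an interaction contrast over the 18 arrays. None of the 37 genes passed for either GapmeR after adjustment in limma, as no transcript cluster did (0%), and 2 genes had an unadjusted p under 0.05 for each, beside 5.69% and 6.51% of all transcript clusters. For GapmeR 1 these were *LGR5* (−0.66, SE 0.23, limma adjusted p = 0.813) and *FZD4* (0.58, SE 0.22, limma adjusted p = 0.826), as HCC1806 response minus HCC1395 response. For GapmeR 2 they were *RSPO3* (0.58, SE 0.18, limma adjusted p = 0.646) and *WIF1* (0.67, SE 0.22, limma adjusted p = 0.678).

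A further list held 50 genes that act elsewhere in the pathway, of which 27 were measured. Between the lines on the control arrays, 5 were higher and 9 lower in HCC1806, a share of 51.9% beside 42.8% of named transcript clusters. *SOSTDC1*, a secreted antagonist that binds LRP6, was 3.41 higher on the log2 scale in HCC1806 (SE 0.23, limma adjusted p = 7.81e-09), at 8.16 ± 0.47 (SD, n = 3) against 4.75 ± 0.09. *GPC4*, a cell surface glypican, differed by −3.95 (SE 0.29, limma adjusted p = 1.38e-08), at 4.37 ± 0.54 against 8.32 ± 0.16. The receptor of non-canonical WNT signalling *ROR1* (−1.94), the planar polarity genes *PRICKLE1* (−1.54) and *PRICKLE2* (−1.49), the antagonist *APCDD1* (−1.50) and the β-catenin cofactor *BCL9* (−1.07) were also lower in HCC1806. Of the 9 HCC1806 arrays, *GPC4* was over the array median on 6, *APCDD1* on 7 and *PRICKLE2* on 4. Under it signal may not be above background, so these differences give no exact ratio of RNA. *BTRC*, which encodes the ubiquitin ligase subunit that recognises marked β-catenin, was 0.89 higher. *GSK3B*, a kinase that marks β-catenin, differed by 0.03, which did not pass. The related *GSK3A* differed by −0.37, which did (limma adjusted p = 0.0223). *GSK3A* also passed on the GapmeR 2 arrays (−0.33, limma adjusted p = 0.0433) but not on the GapmeR 1 arrays (−0.27, limma adjusted p = 0.0947). With a GapmeR none of the 27 passed after adjustment. At an unadjusted p under 0.05 there were 3 with GapmeR 1 in HCC1806 and 3 in HCC1395, beside 5.97% and 5.39% of all transcript clusters, and none with GapmeR 2. In HCC1806 they were *ROR1* (−0.72, limma adjusted p = 0.836), *RYK* (−0.61, limma adjusted p = 0.836), a WNT receptor of the tyrosine kinase family, and *BTRC* (−0.33). *ROR1* was the 1 gene of the list to reach the study's threshold, beside 1.26% of all transcript clusters. In HCC1395 they were *RYK* (−0.43, limma adjusted p = 0.779), *APCDD1* (−0.40) and *PYGO1* (0.37). *PYGO1* was dim there, over the array median on 2 of the 9 HCC1395 arrays.

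A list of 21 genes known elsewhere as targets of β-catenin, leaving out those already counted, had 17 measured. Between the lines 6 were higher and 4 lower in HCC1806, a share of 58.8% beside 29.3% of all and 42.8% of named transcript clusters. The higher ones were *CD44* (2.58), *MET* (2.45), *TCIM* (1.28), *MYC* (1.05), *BIRC5* (0.87) and *CCND1* (0.61), which encode an adhesion receptor, a receptor tyrosine kinase, a transcriptional regulator, a transcription factor of cell growth, an inhibitor of apoptosis and cyclin D1. The lower ones were *SOX9* (−3.74), *TBX3* (−1.84), *EPHB3* (−1.53) and *SNAI2* (−1.27), 3 transcription factors and an ephrin receptor. The list was therefore split in direction between the lines, as were the 37 pathway genes. With a GapmeR none of the 17 passed after adjustment. At an unadjusted p under 0.05 there was 1, beside 5.39% of all transcript clusters. This was *TCIM* in HCC1395 with GapmeR 1, at −0.68 (limma adjusted p = 0.749), which reached the study's threshold, beside 0.955%. *TCIM* was under the array median on all 9 HCC1395 arrays, at 2.40 to 3.25, where signal may not be above background. The same limit applies to its line difference of 1.28.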

How the data were processed

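The authors deposited log2 signals of 53617 transcript clusters for 18 Affymetrix Human Gene 2.0 ST arrays. Per the submitters' notes these came from RMA, run in the Affymetrix Expression Console with no version given, and they were used without further normalization. The sources used here do not give the array's genome build. GEO's platform annotation gave 1 gene symbol to 16098 transcript clusters and none to 37519. Groups are the labelled line and GapmeR. The lines were compared in limma (version 3.58.1, R version 4.3.3, two-sided moderated tests) over all 18 arrays, and each GapmeR was compared with control over the 9 arrays of a line. Benjamini-Hochberg adjustment covered every transcript cluster. The fits were tested on simulated data with the spread of each real fit. In each, 50 transcript clusters were moved by 1.6-fold, 50 by 2-fold, 50 by 4-fold and 50 by 8-fold, and no others. Of 50 changes of 1.6-fold, 18 to 19 were called in the line fits and 5 to 15 in the GapmeR fits. Of 50 changes of 2-fold, these fits called 38 to 46 and 22 to 41. For the difference in response, 4 and 2 of 50 were called at 1.6-fold and 13 and 14 at 2-fold. The cut that the adjustment sets depends on how many transcript clusters differ. In the real data 29.3% to 31.7% of them passed in the line fits and 0% in the GapmeR fits. The simulated counts therefore do not give the share of changes that the real fits can call. Promoters and gene positions are from RefSeq (GRCh38.p14). Python (version 3.11.15) with pandas (version 2.3.3) and matplotlib (version 3.10.9) made the tables and figures.

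The genes, lists and rules were chosen with earlier results of these data known. Genes named are the called members with the largest line difference, the 6 with the highest mean signal (used only to choose names, as levels of different genes are not compared), and per GapmeR comparison the 4 smallest p-values with *AXIN2*. The rule also names *CTNNB1*, which has no symbol here. Other members are named after their values were seen. Alternatives covered quantile normalization on top, the removal of dim transcript clusters, another prior variance, an unmoderated test, the genes adjusted over, which arrays were fitted, the replicate number, the threshold and each array left out in turn. The number of arrays limits the precision.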

Additional observations from a re-analysis of the deposited data

How the results depend on the processing

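Counts of genes called between the lines (18 on control arrays, 19 on GapmeR 1 arrays and 19 on GapmeR 2 arrays) fell to 11, 10 and 11 when 2-fold was also required, and the unmoderated test called 12 on GapmeR 1 arrays. Leaving out each array in turn gave 16 to 18, 15 to 18 and 17 to 19. With the dimmest 40% of transcript clusters left out, 29 of the 37 genes remained in the fit and 17, 18 and 18 were called. For each GapmeR against control and for the differences in response, the adjusted count was 0 under every alternative of the fit, leave-one-out fits included. At an unadjusted p the differences in response gave 2 genes for each GapmeR. With each array left out in turn, *AXIN2* in HCC1395 ran from −0.18 to 0.037 with GapmeR 1, turning sign without control replicate 1, and from −0.058 to 0.20 with GapmeR 2, turning to −0.058 without GapmeR 2 replicate 1 and to −0.053 without control replicate 2. No other named difference changed sign. The line calls of *WIF1*, *APC* and *AXIN2* on control arrays were lost under 9, 6 and 1 of the settings, that of *WIF1* also with the replicate block (adjusted p = 0.0631). Same-numbered arrays of a line correlated in their deviations from group means at −0.01 to 0.11, with 1 of 18 pairs over the 0.1 set for pairing. Yet 16 of 18 arrays correlated best with their own number. The main fits did not pair the arrays, so any spread shared by number stays in their standard errors and intervals. With the replicate block, 17, 19 and 19 genes were called between the lines and 0 with a GapmeR. Each gene had 1 transcript cluster, so another choice of cluster gave no other value. Signals near the array median carry little above background, which limits what can be seen for the 8 genes under it on all 18 arrays. The same limit applies to *FZD9*, over it on only 1 array, in HCC1395. It applies to the line folds of *DKK1*, *RNF43* and *LEF1*, whose signals lie under it on the lower line's controls. It also applies to the line difference of *RSPO2*, under it on HCC1806 controls 1 and 3. For *FZD10* it applies to the line difference on GapmeR 2 arrays, where the HCC1395 signals lie under the array median.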

Other observations

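Arrays were also compared by replicate number. In HCC1806, the same-numbered array was the lowest in all 3 groups for 7 of the 37 genes (18.9%, beside 17% of named transcript clusters) and the highest for 5 (13.5%, beside 17.1%). In HCC1395 it was the lowest for 5 (13.5%, beside 15.6%) and the highest for 10 (27%, beside 16.9%). Most of these shares are thus near those of named transcript clusters in general. *FZD8* in HCC1806 read 5.60, 5.82 and 5.91 on array 3 of the control, GapmeR 1 and GapmeR 2 groups, and 6.73, 6.90 and 6.98 on array 2. *DKK1* in HCC1395 read 4.07, 4.81 and 5.02 on array 1 of those groups and 3.26 to 3.82 on the other arrays. The labels do not say what the replicate number stands for.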
